A study of Mus musculus with 8 samples.

Results

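Janus kinases (JAK) and signal transducers and activators of transcription (STAT) were followed at the RNA level in mouse macrophages through 9 genes of 30284 measured: Stat2, Stat3, Stat4, Stat5a, Stat5b, Stat6, Jak1, Jak2 and Tyk2. The genes were taken by name, and the level of each was summed over all its Ensembl transcripts with deposited values. Levels are in TPM, a length-corrected share of all transcripts in a library. The 8 RNA sequencing libraries came from macrophages of 7-week-old male C57BL6 mice stimulated in the peritoneum, with 2 libraries in each of 4 groups. The groups were IFNb for 4 h and then LPS for 4 h (LPS+IFNb), LPS alone for 4 h, IFNb alone for 4 h, and saline for 4 h. IFNb is interferon beta, the type I interferon that macrophages release on contact with microbes, and LPS is lipopolysaccharide, a component of the bacterial outer membrane that is sensed by Toll-like receptor TLR4. The series asks how IFNb given before LPS changes what macrophages do in response to LPS. No genetic change is named, and the sources used here give no doses. Only the LPS+IFNb mice were treated over both periods, and there was no group with IFNb followed by saline, so pretreatment and the longer stimulation cannot be told apart. The labels do not say whether 2 libraries of a group came from separate mice, so p-values measure the spread between libraries, which may be technical.

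A cytokine receptor has no kinase of its own. JAKs bound to its inner tails phosphorylate each other, the receptor and the STAT proteins that dock there, and STAT dimers then enter the nucleus and bind DNA. The type I interferon receptor works with JAK1 and TYK2, and STAT2 joins IRF9 in the complex that binds the interferon-stimulated response element (ISRE). STAT3 serves the receptors for interleukin 6 and interleukin 10, STAT4 those for interleukin 12, STAT5A and STAT5B those for granulocyte-macrophage colony-stimulating factor and interleukin 2, and STAT6 those for interleukin 4 and interleukin 13. In macrophages STAT3 carries the anti-inflammatory response to interleukin 10, and STAT6 drives alternative activation.

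All 9 genes passed the filter of 1 TPM in at least 2 libraries that left 13009 genes for testing. The deposited values were TPM, which keep no record of read number, so the depth of each library is unknown. Across genes, r was 0.971 to 0.983 between libraries of the same group and 0.823 to 0.951 otherwise, and mitochondrial genes held 2.52% to 3.93% of TPM. The macrophage label was borne by Lyz2 at 10160 to 17557 TPM, Adgre1 at 189 to 307 TPM and Csf1r at 137 to 324 TPM. Gata6 at 0.862 to 2.11 TPM and Timd4 at 0.427 to 3.37 TPM, both markers of resident large peritoneal macrophages, were low in every library. Icam2, another such marker, was at 7.9 to 19.6 TPM. Markers of monocytes and small macrophages summed to 700 and 673 TPM in LPS+IFNb and 580 and 943 TPM in LPS libraries. Their sums were 951 and 898 TPM in IFNb and 221 and 622 TPM in saline libraries. Among them Plac8 averaged 237 TPM in LPS+IFNb, 31.4 TPM in LPS, 346 TPM in IFNb and 22.6 TPM in saline. Ccr2 averaged 6.68, 4.8, 23.1 and 32.8 TPM in the same order. B cell markers summed to 63.5 and 81 TPM in LPS+IFNb, 78.2 and 69.5 TPM in LPS, 86.1 and 85.4 TPM in IFNb, and 153 and 143 TPM in saline libraries. Cd22 gave the largest part, with means of 35, 38.1, 41.3 and 85.6 TPM in that order. Cd79b averaged 6.29, 4.45, 10.2 and 18.4 TPM, and Ms4a1 averaged 8.93, 8.12, 10.4 and 10.6 TPM. Neutrophil markers summed to 221 and 142 TPM in LPS+IFNb, 192 and 286 TPM in LPS, 232 and 154 TPM in IFNb, and 213 and 281 TPM in saline libraries, so that the 2 libraries of each group lay well apart. Of the 8 genes in that sum, 5 were above 1 TPM in some library. Ly6g, Camp and Ngp were at most 0.746 TPM in every library, and Retnlg, Mmp8 and S100a8 made up most of the sum. In bulk RNA, fewer cells of a type and less RNA per cell cannot be told apart.

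All 9 are protein-coding genes, placed here by GENCODE M21 on GRCm38. Stat5b (chr11:100780731-100850724, minus strand), Stat5a (chr11:100859351-100885169, plus) and Stat3 (chr11:100885098-100939540, minus) are neighbours, and Stat6 (chr10:127642986-127660957) and Stat2 (chr10:128270559-128292849) share a plus-strand region of chromosome 10. Stat4 lies at chr1:51987148-52107189 and Jak2 at chr19:29251828-29313080 on the plus strand, and Jak1 at chr4:101152367-101265282 and Tyk2 at chr9:21104068-21131243 on the minus strand.

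Promoter windows of the 9 genes were read to see which hold the letters of an ISRE, since STAT2 is part of the complex that binds it. RefSeq on GRCm38.p6 gave 12 windows for the 9 genes, each from 250 bases before to 50 bases after an annotated start. The Tyk2 window (chr9:21131226-21131525) lies away from the start of Tyk2-201, its only measured transcript, at 21127346. It therefore does not describe that start. The ISRE was searched as GAAA, 2 bases of any kind and GAAA again, and the STAT site as TTCNNNGAA, on both strands. The STAT site letters occurred in none of the 12 windows, against 8.3% of 32851 windows of all genes. The ISRE letters occurred in 2 windows, against 3.44% of all windows: those of Stat2 and of the second annotated start of Stat4. A match of letters is a description of the sequence, and no binding was measured. The 250 bases before each of these starts are shown with the match in capitals, Stat2 from the plus strand of chr10:128270248-128270497 and Stat4 from the plus strand of chr1:52007990-52008239.
Stat2: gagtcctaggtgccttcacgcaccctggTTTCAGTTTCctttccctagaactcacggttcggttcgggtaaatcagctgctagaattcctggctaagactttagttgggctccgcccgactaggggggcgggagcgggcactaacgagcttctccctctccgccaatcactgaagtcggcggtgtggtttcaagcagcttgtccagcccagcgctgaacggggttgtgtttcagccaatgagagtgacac
Stat4: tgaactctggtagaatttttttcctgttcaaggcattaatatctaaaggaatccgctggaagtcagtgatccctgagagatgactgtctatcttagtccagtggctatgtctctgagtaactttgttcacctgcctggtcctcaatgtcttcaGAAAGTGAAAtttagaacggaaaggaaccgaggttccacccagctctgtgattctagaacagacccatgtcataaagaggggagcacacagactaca
The match TTTCAGTTTC began 222 bases before the RefSeq start of Stat2. The match GAAAGTGAAA began 97 bases before the Stat4 start, which lies inside the Stat4 gene next to the annotated start of Stat4-201. Stat4-201 was listed at 0 in every library but saline replicate 1, where it had 0.152 TPM.

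Set in order of level, the 9 genes changed places with treatment. In LPS+IFNb libraries Stat3 led with 291 ± 36 TPM (SD, n = 2, as for all means below), then Jak2 with 244 ± 15.8 TPM and Stat2 with 162 ± 10.7 TPM. In LPS libraries Jak2 led with 211 ± 2.9 TPM, then Stat5a with 164 ± 0.513 TPM and Stat2 with 152 ± 2.86 TPM. In IFNb libraries Stat2 led with 268 ± 11.1 TPM, then Stat3 with 183 ± 11.8 TPM and Jak1 with 126 ± 13 TPM. In saline libraries Jak1 with 125 ± 0.981 TPM and Stat6 with 117 ± 15 TPM stood first, with overlapping libraries, and Jak2, Stat5b, Tyk2, Stat2 and Stat5a lay close together at 12.6 to 20 TPM. Stat4 was the lowest of the 9 in every library. Summed, the 9 genes gave 1027 and 1168 TPM in LPS+IFNb, 924 and 939 TPM in LPS, 819 and 841 TPM in IFNb, and 366 and 424 TPM in saline libraries. This order counts all transcripts with deposited values. Those were 2 of 8 annotated for Stat2, 2 of 4 for Jak2 and 1 of 6 for Tyk2. For the other genes all annotated ones were present. The absent Stat2 transcripts are all annotated with a retained intron, so the sums are not of like make-up between genes. The order also differs for protein-coding transcripts alone. Coding Stat3 had 134 and 122 TPM in LPS+IFNb libraries, below Jak2 (232 and 255 TPM) and Stat2 (155 and 170 TPM). It had 89.3 and 80.6 TPM in IFNb libraries, below Jak2 at 115 and 116 TPM. Coding Stat6 had 72.25 and 83.88 TPM in saline libraries, below Jak1 at 108 and 109 TPM.

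**Figure D1:**
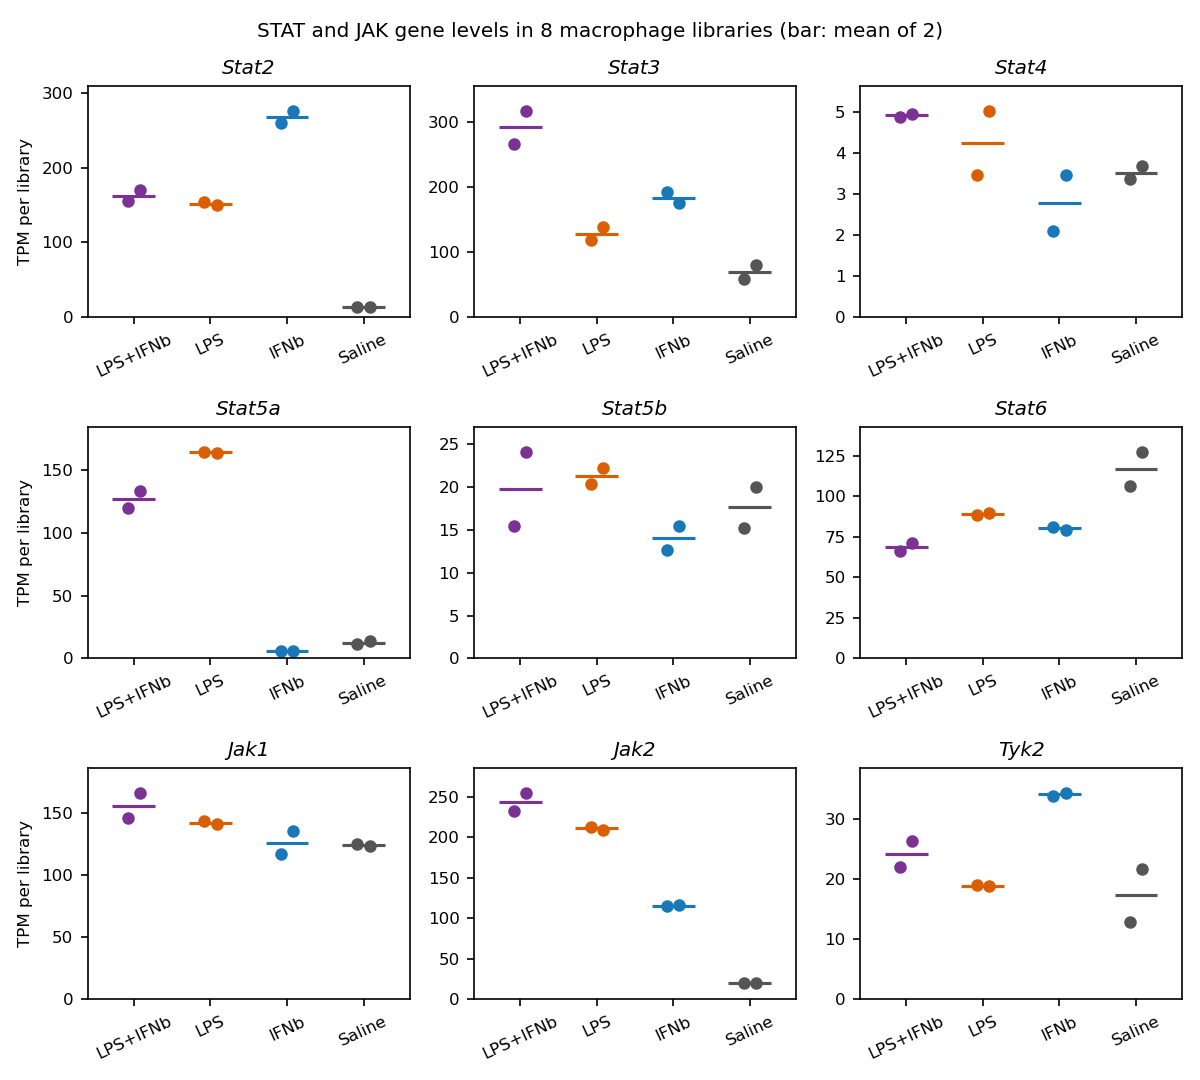
Levels of the 9 STAT and JAK genes in TPM (vertical axes, each from 0), with 1 point per library and a bar at the mean of the 2 libraries of each group (LPS+IFNb, LPS, IFNb and saline from left to right). Stat2 and Jak2 lay at 13.3 to 20.2 TPM in saline libraries and at 115 to 276 TPM in all treated ones, whereas Stat5a was high only where LPS was given.

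Against saline, LPS raised 4 and lowered 1 of the 9 genes, where 12.8% of all tested genes were called higher and 41.3% lower, 54.1% in all (limma on log2(TPM + 1), adjusted p under 0.05). IFNb raised 4 and lowered 2, where 13.0% of tested genes were called higher and 38.6% lower, 51.6% in all. LPS+IFNb raised 5 and lowered 1, where 15.2% of tested genes were called higher and 54.1% lower, 69.4% in all. The 3 comparisons share the saline libraries. The median log2 difference of the 9 genes was 0.50 for LPS+IFNb, 0.26 for LPS and 0.01 for IFNb against saline, beside −0.62, −0.38 and −0.37 for all tested genes. TPM sums are fixed, so the general shift depends on the scaling: median-ratio scaling moved the median of all genes up by 0.61, 0.39 and 0.34 in those 3 comparisons. Under it the share of calls that were higher became 51.7% in place of 22% for LPS+IFNb, 54.6% in place of 23.7% for LPS, and 55.9% in place of 25.3% for IFNb. It became 59.2% in place of 30.9% in LPS+IFNb against LPS and 54.8% in place of 22.3% in LPS+IFNb against IFNb, and 27.2% in place of 44.1% for the difference between the LPS effects after and without IFNb.

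**Figure D2:**
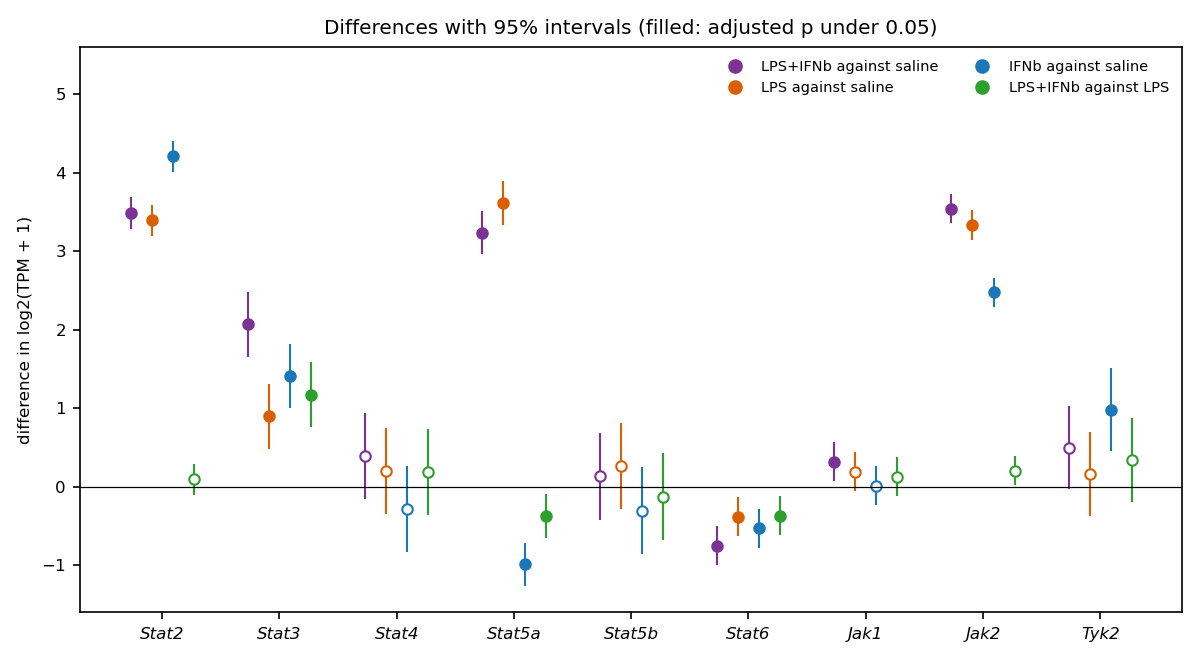
Differences in log2(TPM + 1) with 95% intervals for the 9 genes (horizontal axis) in 4 comparisons from the fit of all 8 libraries. Filled points passed an adjusted p under 0.05. Stat2 and Jak2 lay above 2 in all 3 comparisons with saline, and Stat5a lay at 3.24 with LPS+IFNb, 3.61 with LPS and −0.99 with IFNb.

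Stat2, the interferon-specific STAT, rose with each treatment and most with IFNb alone. Its level was 155 and 170 TPM in LPS+IFNb, 154 and 150 TPM in LPS, 260 and 276 TPM in IFNb, and 13.3 and 13.8 TPM in saline libraries. No treated library overlapped a saline library, and the IFNb libraries stood above both groups that had LPS. Against saline the log2 difference was 3.49 ± 0.08 (SE; adjusted p = 6.46e-07) for LPS+IFNb, 3.39 ± 0.08 (adjusted p = 1.3e-06) for LPS and 4.21 ± 0.08 (adjusted p = 3.96e-07) for IFNb, which are ratios of mean TPM of 12, 11.2 and 19.8. LPS was lower than IFNb by 0.81 (adjusted p = 0.000412). LPS+IFNb was likewise lower than IFNb, with a difference of −0.72 ± 0.08 (adjusted p = 0.00149). Between LPS+IFNb and LPS the difference was 0.09, with a 95% interval of −0.11 to 0.29 (adjusted p = 0.429).

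Stat3, which transmits interleukin 6 and interleukin 10 signals, was highest when LPS followed IFNb. The values were 266 and 317 TPM in LPS+IFNb, 118 and 139 TPM in LPS, 192 and 175 TPM in IFNb, and 58.6 and 79.7 TPM in saline libraries. The 4 groups did not overlap. Stat3 rose by 2.07 ± 0.17 with LPS+IFNb (adjusted p = 9.55e-05), 0.90 ± 0.17 with LPS (adjusted p = 0.00522) and 1.41 ± 0.17 with IFNb (adjusted p = 0.000989) on the log2 scale against saline. In LPS+IFNb against LPS, where 10.8% of tested genes were called higher and 24.1% lower (34.8% in all), Stat3 was the 1 of the 9 genes called higher, by 1.17 ± 0.17 (adjusted p = 0.00335), and Stat5a and Stat6 were the 2 called lower. Against IFNb, LPS+IFNb was higher by 0.66 ± 0.17 (adjusted p = 0.0242). That call was lost with any of the 4 libraries compared left out, at differences of 0.53 to 0.79 (adjusted p = 0.0516 to 0.117). The effect of LPS after IFNb differed from that without IFNb by −0.24, with a 95% interval of −0.82 to 0.35 (adjusted p = 0.63).

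Stat3 TPM was spread over 14 annotated transcripts, and its protein-coding transcripts held 36% to 50.6% of it. The main coding transcript Stat3-203 held 49.1% and 36.7% in LPS+IFNb, 34.6% and 39.4% in LPS, 45% and 43.4% in IFNb, and 48.4% and 42.8% in saline libraries. These shares overlapped between treated and saline libraries. Transcripts with a retained intron held 33.2% to 48.3% in the 8 libraries. Stat3 and Stat5a lie tail to tail on opposite strands of chromosome 11 and share 72 bp of annotated sequence, and the sources used here do not say whether counting used strand.

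Stat5a, a STAT of colony-stimulating factor and interleukin 2 family receptors, rose where LPS was given and fell with IFNb alone. It was at 120 and 134 TPM in LPS+IFNb, 165 and 164 TPM in LPS, 5.56 and 6.06 TPM in IFNb, and 11.4 and 13.7 TPM in saline libraries. All 4 LPS-treated libraries stood far above the rest, and both IFNb libraries lay under both saline libraries. On the log2 scale Stat5a rose by 3.24 ± 0.12 with LPS+IFNb (adjusted p = 2.92e-06) and by 3.61 ± 0.12 with LPS (adjusted p = 3.11e-06) against saline, ratios of mean TPM of 10.1 and 13.1. With IFNb it fell by 0.99 ± 0.12 (adjusted p = 0.000845), a ratio of 0.463. Under median-ratio scaling that fall was −0.63, still called. LPS+IFNb exceeded IFNb by 4.23 ± 0.12 (adjusted p = 7.4e-06), and LPS exceeded IFNb by 4.60 ± 0.12 (adjusted p = 3.08e-06). Between LPS+IFNb and LPS the difference was −0.37 ± 0.12 (adjusted p = 0.0464). That call was lost with any 1 of the 6 libraries of the LPS+IFNb, LPS and IFNb groups left out. It was also lost under median-ratio and upper-quartile scaling. Over all alternatives the difference lay between −0.45 and −0.12.

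Stat5b, the close relative of Stat5a, did not pass the test in any comparison at the gene level. Its level was 15.4 and 24.1 TPM in LPS+IFNb, 20.3 and 22.2 TPM in LPS, 12.7 and 15.4 TPM in IFNb, and 15.3 and 20 TPM in saline libraries, so that LPS+IFNb and IFNb libraries overlapped the saline ones and LPS libraries lay just above them. The log2 difference from saline was 0.14 with a 95% interval of −0.42 to 0.69 for LPS+IFNb, 0.26 (−0.29 to 0.82) for LPS and −0.30 (−0.86 to 0.25) for IFNb. The ratio of Stat5a to Stat5b in TPM was 7.74 and 5.54 in LPS+IFNb, 8.1 and 7.38 in LPS, 0.438 and 0.393 in IFNb, and 0.748 and 0.684 in saline libraries. Stat5a was therefore the higher of the pair only in libraries with LPS. The pair shares sequence: 11.5% of the 31-base words of Stat5a transcripts also occur in Stat5b, and 15.1% of those of Stat5b occur in Stat5a, so part of their reads was divided by estimate.

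Within Stat5b, the estimated levels of the coding transcripts Stat5b-201, from the outer start, and Stat5b-202, from the inner start, changed in opposite directions. Stat5b-201 and Stat5b-202 both have 19 exons and the same number of codons (786), and their annotated starts lie 28196 bp apart on the minus strand of chromosome 11, at 100850724 and 100822528. Both end at 100780731, so reads of their shared sequence were divided between them by estimate. How far that division made the opposite changes was not tested. The 100 bases before each start, outside the annotated 5′ ends of RefSeq and GENCODE, are shown because they are the sequences next to the 2 starts; Stat5b-201 is from chr11:100850725-100850824 and Stat5b-202 from chr11:100822571-100822670, both read on the minus strand.
Stat5b-201: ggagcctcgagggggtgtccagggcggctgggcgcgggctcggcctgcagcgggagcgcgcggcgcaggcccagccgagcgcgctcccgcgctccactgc
Stat5b-202: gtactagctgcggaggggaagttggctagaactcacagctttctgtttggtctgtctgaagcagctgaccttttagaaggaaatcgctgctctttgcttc
The outer window holds 82% G and C and 15 CG steps, and the inner window 49% and 2. The median promoter window of all genes holds 52.7% G and C. Those windows are longer, at 300 bases, and include 50 bases after the start, so the values are not of like stretches.

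Stat5b-201 held 77.7% and 50.5% of Stat5b TPM in LPS+IFNb, 83% and 63.1% in LPS, 71.3% and 60% in IFNb, and 18.6% and 25.8% in saline libraries. Stat5b-202 held 20.2% and 23.7% in LPS+IFNb, 9.8% and 25.9% in LPS, 28.7% and 23.5% in IFNb, and 74.8% and 68.2% in saline libraries. The leading transcript was Stat5b-201 in all 6 treated libraries and Stat5b-202 in both saline ones. In levels, Stat5b-201 was at 12 and 12.2 TPM in LPS+IFNb, 16.9 and 14 TPM in LPS, 9.05 and 9.26 TPM in IFNb, and 2.83 and 5.17 TPM in saline libraries. Stat5b-202 was at 3.13 and 5.72 TPM in LPS+IFNb, 1.99 and 5.74 TPM in LPS, 3.64 and 3.63 TPM in IFNb, and 11.4 and 13.7 TPM in saline libraries. For both transcripts, no treated library overlapped a saline one.

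In a limma fit of 33346 transcripts, Stat5b-201 was higher than in saline by 1.43 ± 0.24 with LPS+IFNb (adjusted p = 0.00575), 1.75 ± 0.24 with LPS (adjusted p = 0.00496) and 1.06 ± 0.24 with IFNb (adjusted p = 0.0283) on the log2 scale. Of all transcripts 39.5% were called with LPS+IFNb (10.5% higher, 28.9% lower), 24.0% with LPS (7.95% higher, 16.0% lower) and 21.5% with IFNb (7.85% higher, 13.7% lower). Stat5b-202 was lower by 1.36 ± 0.42 with LPS+IFNb (adjusted p = 0.0466), 1.59 ± 0.42 with LPS (adjusted p = 0.0418) and 1.54 ± 0.42 with IFNb (adjusted p = 0.0491). Stat5b-203, a transcript of the outer region annotated as non-coding, was not called, at 0.55 with LPS+IFNb, 0.46 with LPS and −0.17 with IFNb. The 2 coding transcripts were singled out after their values were seen. The fall of Stat5b-202 lost its call with median-ratio and upper-quartile scaling and when most single libraries were left out. The rise of Stat5b-201 with IFNb lost its call without saline replicate 1, LPS replicate 1 or any IFNb or LPS+IFNb library.

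**Figure D3:**
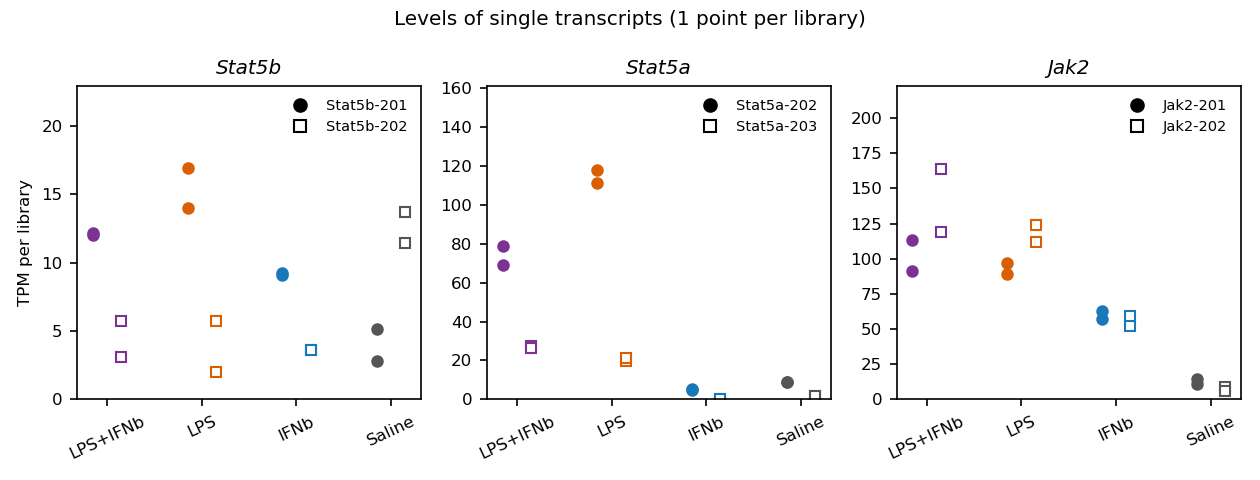
TPM per library (vertical axes, from 0) of the 2 leading transcripts of Stat5b, Stat5a and Jak2, with filled circles for the first transcript named and open squares for the second, in LPS+IFNb, LPS, IFNb and saline groups from left to right. The order of Stat5b-201 and Stat5b-202 is turned round between the treated and the saline libraries, while both transcripts of Jak2 are higher in every treated library than in saline.

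Stat6, which acts for interleukin 4, was lower than in saline with each treatment, by amounts near the median shift of all genes. The libraries had 66.4 and 71.1 TPM in LPS+IFNb, 88.3 and 89.8 TPM in LPS, 80.9 and 79.3 TPM in IFNb, and 106 and 127 TPM in saline. No treated library overlapped a saline one. Stat6 fell by 0.75 ± 0.10 with LPS+IFNb (adjusted p = 0.000782), by 0.38 ± 0.10 with LPS (adjusted p = 0.021) and by 0.53 ± 0.10 with IFNb (adjusted p = 0.00629) on the log2 scale. Median-ratio scaling gave −0.035 for LPS+IFNb (adjusted p = 0.781), 0.078 for LPS and −0.14 for IFNb (adjusted p = 0.306), so the falls were not called under it and the one with LPS changed sign. The call with LPS was also lost under upper-quartile scaling (−0.19, adjusted p = 0.13), in a fit of only the groups compared (adjusted p = 0.0668), and without saline replicate 2 (−0.25, adjusted p = 0.0698) or either LPS library (adjusted p = 0.0841 and 0.0716). The difference between LPS+IFNb and LPS was −0.37 ± 0.10 (adjusted p = 0.0349). It lost its call with any 1 of the 6 libraries of the LPS+IFNb, LPS and IFNb groups left out. Median-ratio and upper-quartile scaling also removed that call. Protein-coding transcripts held 65.15% to 73.98% of Stat6 TPM, and the rest was annotated with a retained intron. In the limma fit of all transcripts, LPS+IFNb differed from LPS by −0.22 in the main coding transcript Stat6-201 (adjusted p = 0.256). The retained-intron transcript Stat6-203 differed by −1.47 (adjusted p = 0.00408). Stat6 shares 40 bp with Nab2 on the opposite strand, and Nab2 was at 19.1 to 33.2 TPM.

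Stat4, which serves the interleukin 12 receptor mainly in T and NK cells, was near the lower limit of the data. It had 4.89 and 4.96 TPM in LPS+IFNb, 3.47 and 5.03 TPM in LPS, 2.1 and 3.47 TPM in IFNb, and 3.37 and 3.68 TPM in saline libraries. The log2 difference from saline was 0.39 (95% interval −0.16 to 0.94) for LPS+IFNb, 0.20 (−0.35 to 0.75) for LPS and −0.28 (−0.83 to 0.26) for IFNb, and none passed the test at the gene level. With only protein-coding transcripts summed, an alternative added after the data were seen, Stat4 was called higher with LPS+IFNb (0.74, adjusted p = 0.00906) and with LPS (0.57, adjusted p = 0.0339). Of 14 markers of T and NK cells, 10 reached 1 TPM in some library and none was at 0 in all. They summed to 21.7 and 30.9 TPM in LPS+IFNb, 19.9 and 18.7 TPM in LPS, 21.4 and 33.2 TPM in IFNb, and 31.7 and 25.8 TPM in saline libraries. Which cells held the Stat4 RNA was not tested. The coding transcript Stat4-202, which begins at the first start, held 95.1% and 100% of Stat4 TPM in LPS+IFNb, 100% and 98.2% in LPS, 100% and 70.4% in IFNb, and 64.6% and 70.8% in saline libraries. In the fit of all transcripts Stat4-202 was called higher with LPS+IFNb than in saline, by 0.78 ± 0.23 (adjusted p = 0.0378).

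Among the kinases, Jak2, which serves the receptors for interferon gamma and colony-stimulating factors, moved most. It was at 232 and 255 TPM in LPS+IFNb, 213 and 209 TPM in LPS, 115 and 116 TPM in IFNb, and 19.8 and 20.2 TPM in saline libraries. The 4 groups did not overlap. Jak2 rose by 3.54 ± 0.08 with LPS+IFNb (adjusted p = 5.1e-07), 3.33 ± 0.08 with LPS (adjusted p = 1.1e-06) and 2.47 ± 0.08 with IFNb (adjusted p = 2.31e-06) on the log2 scale, ratios of mean TPM of 12.2, 10.5 and 5.79. LPS+IFNb exceeded IFNb by 1.07 ± 0.08 (adjusted p = 0.000266). LPS exceeded IFNb by 0.86 ± 0.08 (adjusted p = 0.000255). Between LPS+IFNb and LPS the difference of 0.21 (95% interval 0.02 to 0.39) did not pass the adjusted test (adjusted p = 0.0847). It passed under median-ratio and upper-quartile scaling, but not when values were rescaled over protein-coding genes. The 2 coding transcripts Jak2-201 and Jak2-202 were each called higher in all 3 comparisons with saline, at 2.92 and 4.11 for LPS+IFNb, 2.79 and 3.87 for LPS, and 2.16 and 2.80 for IFNb.

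Jak1, the kinase shared by interferon and interleukin 6 family receptors, lay at 117 to 166 TPM in all libraries. Its level was 146 and 166 TPM in LPS+IFNb, 143 and 141 TPM in LPS, 117 and 135 TPM in IFNb, and 125 and 124 TPM in saline libraries. Against saline the difference was 0.32 ± 0.10 with LPS+IFNb (adjusted p = 0.0282), 0.19 ± 0.10 with LPS (adjusted p = 0.158) and 0.01 ± 0.10 with IFNb (adjusted p = 0.919). The call with LPS+IFNb was lost without either saline library or LPS+IFNb replicate 2, at adjusted p values up to 0.149. Under median-ratio scaling the difference was 1.04 with LPS+IFNb (adjusted p = 0.000712) and 0.65 with LPS (adjusted p = 0.00899), both called, and upper-quartile scaling also called it with LPS (0.38, adjusted p = 0.0187). The ratio of Jak2 to Jak1 in TPM was 1.6 and 1.53 in LPS+IFNb, 1.49 and 1.48 in LPS, 0.985 and 0.859 in IFNb, and 0.158 and 0.163 in saline libraries.

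Tyk2, the other kinase of the type I interferon receptor, was highest with IFNb alone. It had 22 and 26.5 TPM in LPS+IFNb, 19 and 18.9 TPM in LPS, 34 and 34.4 TPM in IFNb, and 13 and 21.7 TPM in saline libraries. The IFNb libraries stood above all others, and the 2 saline libraries lay further apart than those of any other group. Tyk2 rose by 0.98 ± 0.22 with IFNb (adjusted p = 0.0108), and the call was lost without IFNb replicate 2 (adjusted p = 0.0513). With LPS+IFNb the difference was 0.50 ± 0.22 (adjusted p = 0.0853) and with LPS 0.16 ± 0.22 (adjusted p = 0.566). Without saline replicate 2 both were called, at 0.85 and 0.51, and without saline replicate 1 the difference with LPS was −0.19. LPS was lower than IFNb by 0.82 ± 0.22 (adjusted p = 0.0272), which was not called with any LPS or IFNb library left out. Tyk2 rests on 1 of its 6 annotated transcripts, the one in the files.

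The effect of LPS after IFNb was then set against the effect of LPS without it. The effect after IFNb is LPS+IFNb minus IFNb, and the LPS+IFNb group was also stimulated for longer. What LPS did after IFNb cannot be told apart from the added time. In LPS+IFNb against IFNb, 3 of the 9 genes were called higher (Stat5a, Jak2 and Stat3) and 1 lower (Stat2), where 8.76% of tested genes were called higher and 30.5% lower, 39.3% in all. In LPS against IFNb, 2 were called higher (Stat5a and Jak2) and 2 lower (Stat2 and Tyk2), where 16.6% were called higher and 22.1% lower, 38.7% in all. The difference between the LPS effects after and without IFNb was called for 2 of the 9 genes, both lower, where 3.51% of tested genes were called higher and 4.45% lower, 7.96% in all. For Stat2 it was −4.11 ± 0.12 (adjusted p = 1.31e-05): after IFNb the LPS effect was −0.72, and without IFNb it was 3.39. For Jak2 it was −2.27 ± 0.11 (adjusted p = 7.45e-05): after IFNb the LPS effect was 1.07, and without IFNb it was 3.33. Both calls held in all 17 alternatives in which they could be computed, from −4.22 to −4.05 for Stat2 and from −2.38 to −2.20 for Jak2. For Stat5a it was 0.61 ± 0.16 (adjusted p = 0.0773), called in 3 of 17 alternatives, with LPS effects of 4.23 after IFNb and 3.61 without it.

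**Figure D4:**
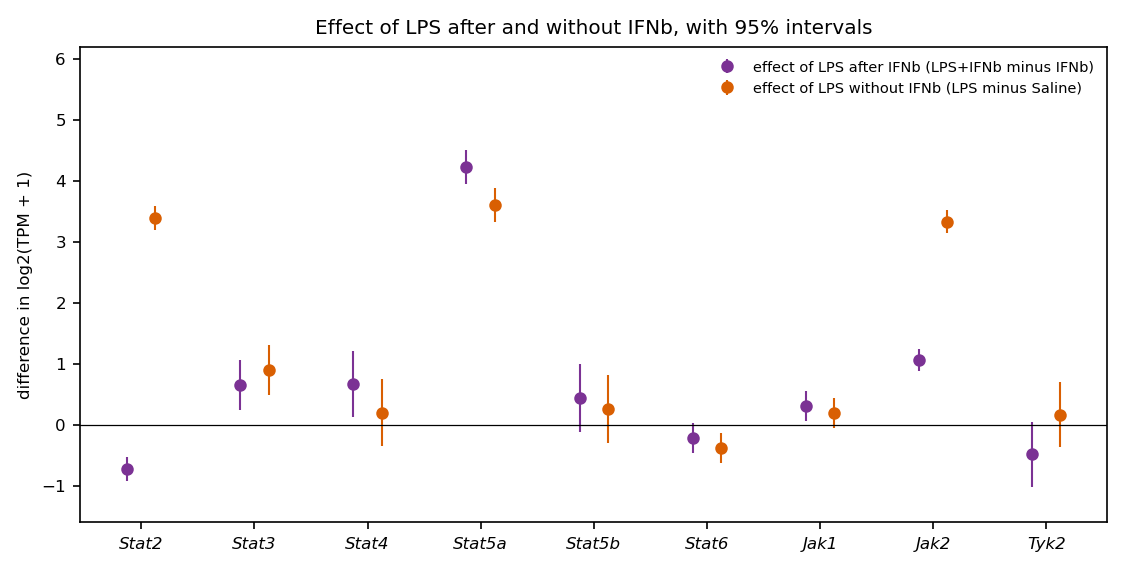
Effect of LPS on the 9 genes after IFNb (LPS+IFNb minus IFNb) and without IFNb (LPS minus saline), as differences in log2(TPM + 1) with 95% intervals. The effect after IFNb also holds the longer stimulation of the LPS+IFNb group, which cannot be told apart from LPS. The 2 effects lie far apart for Stat2 (−0.72 and 3.39) and Jak2 (1.07 and 3.33) and near each other for Stat3, Stat6 and Jak1.

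Among genes that feed into or follow from the 9, cytokine ligands that signal through JAKs had 14 of 15 tested genes called higher with LPS+IFNb, 14 with LPS and 5 with IFNb against saline, with median differences of 3.84, 4.43 and 0.22, and the 1 lower gene in each was Il4. Of all tested genes 15.2%, 12.8% and 13.0% were called higher in those 3 comparisons. Il27 had a mean of 432 TPM in LPS+IFNb, 210 TPM in LPS, 34.7 TPM in IFNb and 0.693 TPM in saline libraries. Il10, the ligand for the STAT3-activating receptor that restrains macrophages, was at 159 and 168 TPM in LPS+IFNb, 28.3 and 23.2 TPM in LPS, 15.7 and 16.9 TPM in IFNb, and 0.323 and 0.152 TPM in saline libraries. Il10 and Stat3 were both called higher in LPS+IFNb than in LPS, Il10 by 2.63 ± 0.13 (adjusted p = 9.94e-05). Ifnb1, which encodes interferon beta, was at 158 and 59.5 TPM in LPS+IFNb, 10.9 and 10 TPM in LPS, and 0.229 and 0.101 TPM in IFNb libraries, and was listed at 0 in saline, as was Csf2. For these 2 the differences from saline depend on the pseudocount, and the ligand medians include them.

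Of 25 tested receptor chains, 11 rose and 6 fell with LPS+IFNb, 8 rose and 6 fell with LPS, and 8 rose and 6 fell with IFNb, with medians of 0.28, −0.08 and −0.06. These totals lay near the 69.4%, 54.1% and 51.6% of all tested genes called in those comparisons. Of all tested genes 15.2% were higher and 54.1% lower with LPS+IFNb, 12.8% and 41.3% with LPS, and 13.0% and 38.6% with IFNb. Ifngr1, the ligand-binding chain for interferon gamma, was at 36 and 39.1 TPM in LPS+IFNb, 111 and 95.6 TPM in LPS, 29.4 and 22 TPM in IFNb, and 131 and 124 TPM in saline libraries. It fell by 1.74 ± 0.15 with LPS+IFNb and by 2.28 ± 0.15 with IFNb (adjusted p = 0.000115 and 7.16e-05). Ifnar1, which encodes a subunit of the receptor for interferon beta, was at 167 and 181 TPM in LPS+IFNb, 208 and 195 TPM in LPS, 74.2 and 72.7 TPM in IFNb, and 76.5 and 86.4 TPM in saline libraries. Il6ra, the interleukin 6 receptor, fell by 2.08 ± 0.20 with LPS+IFNb and by 2.42 ± 0.20 with LPS (adjusted p = 0.000156 and 0.000181). Il15ra rose with each treatment, by 5.30 with LPS+IFNb, 3.96 with LPS and 4.86 with IFNb.

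Of 19 inhibitors of the pathway, 8 rose and 6 fell with LPS+IFNb, 10 rose and 6 fell with LPS, and 7 rose and 6 fell with IFNb, with medians of 0.11, 0.47 and 0.09. Of all tested genes 69.4%, 54.1% and 51.6% were called in those comparisons, and 15.2%, 12.8% and 13.0% were called higher. Socs1, a feedback inhibitor that binds JAKs, was at 77.4 and 79 TPM in LPS+IFNb, 43.8 and 45.5 TPM in LPS, 125 and 128 TPM in IFNb, and 0.344 and 0.936 TPM in saline libraries. Cish, a feedback inhibitor and a known STAT5 target, was at 96.9 and 96.8 TPM in LPS+IFNb, 128 and 118 TPM in LPS, 2.79 and 1.43 TPM in IFNb, and 0.516 and 0.592 TPM in saline libraries. It was high in the same 4 libraries as Stat5a, and a link between them was not tested. Of 9 listed STAT5 targets, 5 were called higher with IFNb, where Stat5a fell. Socs2 was 1 of them, at a mean of 13.9 TPM in IFNb and 3.87 TPM in saline libraries. Socs3, which blocks interleukin 6 receptor signalling, had 763 and 1105 TPM in LPS+IFNb, 1082 and 1191 TPM in LPS, 13.1 and 9.31 TPM in IFNb, and 4.2 and 7.85 TPM in saline libraries. Usp18, which restrains the type I interferon receptor, was at 676 and 628 TPM in LPS+IFNb, 193 and 213 TPM in LPS, 813 and 808 TPM in IFNb, and 10.3 and 8.58 TPM in saline libraries. Of 7 partners and adaptors, 2 rose and 2 fell with LPS+IFNb, 2 rose and 2 fell with LPS, and 2 rose with IFNb, with medians of −0.24, −0.18 and 0.28. Their totals lay near or under the share of all tested genes called. Nmi, which encodes a STAT-interacting protein, was at 340 and 297 TPM in LPS+IFNb, 67.8 and 58.2 TPM in LPS, 323 and 330 TPM in IFNb, and 26.1 and 24.5 TPM in saline libraries. Stam, a signal-transducing adaptor, fell by 1.14 ± 0.12 with LPS+IFNb (adjusted p = 0.000261) and by 0.91 ± 0.12 with LPS (adjusted p = 0.00133). Irf9, the DNA-binding partner of STAT2, was at 75.2 and 67.3 TPM in LPS+IFNb, 72.2 and 74.5 TPM in LPS, 83.6 and 75.5 TPM in IFNb, and 27.4 and 26.3 TPM in saline libraries. Irf9 rose by 1.37 with LPS+IFNb, 1.42 with LPS and 1.53 with IFNb, each by ± 0.10.

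All 16 listed targets of the STAT2 complex were called higher in LPS+IFNb, in LPS and in IFNb than in saline, with medians of 7.18, 5.40 and 6.86. Against LPS, LPS+IFNb was called higher for 14 of the 16, with a median of 1.71, whereas Stat2 itself differed by 0.09. Cmpk2, an antiviral nucleotide kinase, was at 1998 and 1876 TPM in LPS+IFNb, 466 and 426 TPM in LPS, 3036 and 2673 TPM in IFNb, and 4.84 and 4.85 TPM in saline libraries. Of 12 STAT3 targets, 10 were called higher with LPS+IFNb, 9 with LPS and 4 with IFNb, and 3 were called higher in LPS+IFNb than in LPS: Il1rn by 1.66, Ccnd1 by 2.34 and Fos by 1.33. With LPS 2 of the STAT3 targets were called lower than in saline, Fos by −1.39 and Mcl1 by −0.41, and Fos averaged 24.6 TPM in LPS+IFNb, 9.1 TPM in LPS and 25.7 TPM in saline libraries, so that it was low with LPS alone. Of 9 STAT5 targets, 7 were called higher with LPS+IFNb, 7 with LPS and 5 with IFNb, with Ccnd2 at a mean of 113 TPM in LPS+IFNb, 71.6 TPM in LPS, 18.7 TPM in IFNb and 1.47 TPM in saline, and 1 was called lower with LPS, Id2 by −0.76. Of 12 STAT6 targets, 5 rose and 1 fell with LPS+IFNb, 5 rose and 2 fell with LPS, and 3 rose and 2 fell with IFNb. These STAT6 totals lay near or under the 69.4%, 54.1% and 51.6% of all tested genes called. Of all tested genes 15.2%, 12.8% and 13.0% were called higher in those comparisons. The lists share genes (Socs1, Socs3, Cish, Pim1 and Il4ra among them), and many of the listed targets respond to other factors too.

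**Figure D5:**
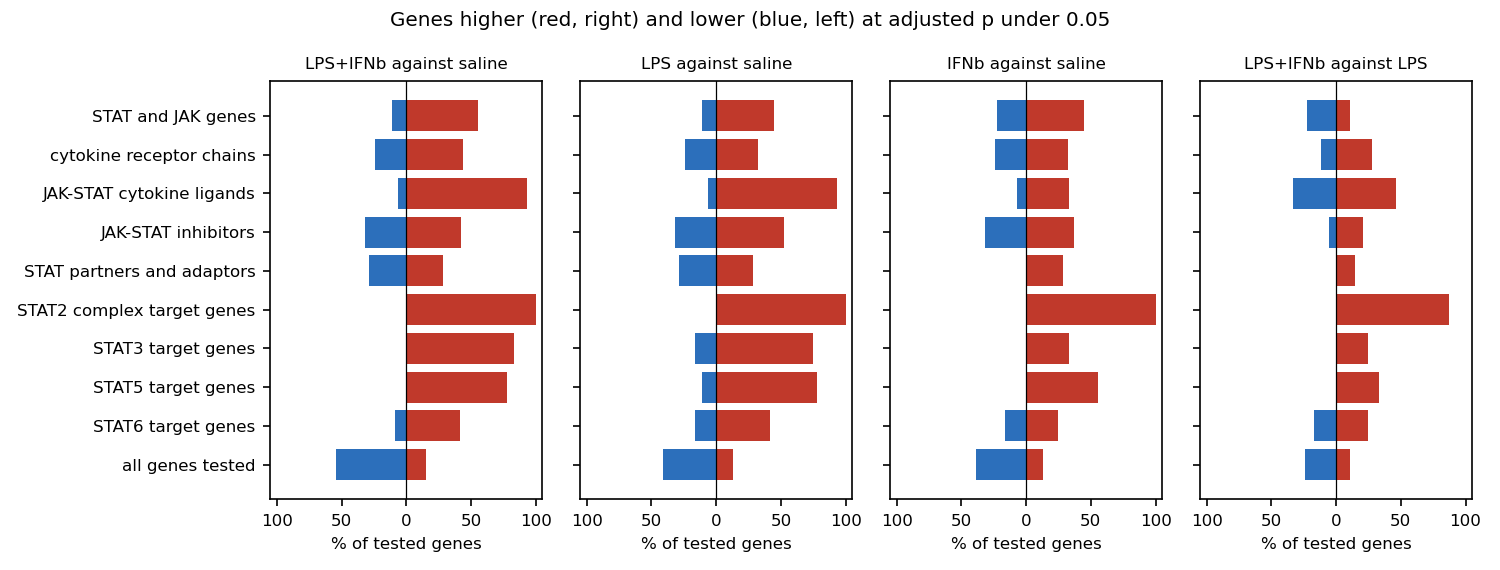
Percent of tested genes called higher (red, to the right) and lower (blue, to the left) at an adjusted p under 0.05, for the 9 STAT and JAK genes, 8 pathway and target lists, and all 13009 tested genes, in 4 comparisons. All 16 targets of the STAT2 complex were higher in the 3 comparisons with saline, where calls among all genes were mostly lower.

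The genes whose profile over the 8 libraries was most like each member were found by the root mean square difference of log2(TPM + 1) about the mean, among 7161 genes. Stat5a had Tnfaip2 (0.112), Zc3h12a (0.16) and Pde4b (0.173) nearest, Jak2 had Spred1 (0.128), Hspa1b (0.172) and Slfn2 (0.182), and Stat3 had Arf4 (0.114), Gda (0.176) and Ccnyl1 (0.181). For Stat2 the nearest were Daxx (0.247), Irgm2 (0.247) and Slfn9 (0.275), further away than for the others of the 9. The nearest gene was Rnpep for Tyk2 (0.106), Supt5 for Stat6 (0.0419), Riok3 for Jak1 (0.0708), Dpf2 for Stat5b (0.118) and Suz12 for Stat4 (0.161). No other member was among the 3 nearest genes of any member.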

How the data were processed

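Each of the 8 libraries came as a file of deposited TPM values for 88198 Ensembl transcripts. Per the submitters' processing notes kallisto, a pseudoaligner, was used with the mm10 build, and per the labels' protocols libraries were made with an Illumina TruSeq kit. The sources used here give no versions, transcript set or filters. TPM keeps no depth, so no counting interval is given.

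Transcripts were matched to GENCODE M21 (86119 matched, 2079 did not) and summed to 30284 genes. Genes that reached 1 TPM in 2 or more libraries entered the test on log2(TPM + 1), a scale that understates the change of low genes, in 1 limma-trend fit (limma 3.58.1, R 4.3.3) of all 8 libraries with a mean per group. It gave 7 comparisons, 4 residual and 2.54 prior degrees of freedom, and two-sided p-values with Benjamini-Hochberg adjustment over all genes. The fit was tested on simulated data. The 9 genes and the lists were chosen with earlier results of these data known. All 9 are described, and from each list up to 3 genes per direction and comparison by adjusted p. For profiles, the 3 nearest genes were taken among those averaging 3 or more in log2(TPM + 1) whose symbol is not that of a predicted gene. Alternatives changed the scaling, filter, pseudocount, threshold, libraries and transcripts, or added a replicate block. Promoters are from RefSeq (GRCm38.p6).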

Additional observations from a re-analysis of the deposited data

Results flagged for a closer look

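The effect of LPS on Stat2 after IFNb differed from that without IFNb by −4.11 ± 0.12 on the log2 scale (limma, adjusted p = 1.31e-05). The LPS+IFNb libraries had 155 and 170 TPM and the IFNb libraries 260 and 276 TPM, while the LPS libraries had 154 and 150 TPM and the saline libraries 13.3 and 13.8 TPM. Both LPS+IFNb libraries thus lay under both IFNb libraries, and both LPS libraries above both saline libraries. The pattern was not particular to Stat2. All 16 listed targets of the STAT2 complex were also called lower for this difference, with a median of −5.95, beside 4.45% of all tested genes.

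For Jak2 the same difference was −2.27 ± 0.11 (limma, adjusted p = 7.45e-05). Both LPS+IFNb libraries (232 and 255 TPM) lay above both IFNb libraries (115 and 116 TPM), and both LPS libraries (213 and 209 TPM) above both saline libraries (19.8 and 20.2 TPM). The LPS+IFNb group was also stimulated for longer, and that part of the difference cannot be told apart from the order of the agents. Groups of 2 libraries are too small for a test of single outlying libraries.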

How the results depend on the processing

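The differences of Stat2, Jak2, Stat5a and Stat3 from saline, that of Stat3 between LPS+IFNb and LPS, and the LPS contrast (its effect after IFNb minus that without) of Stat2 and Jak2 kept direction and call under every alternative run. Of all member differences over the alternatives, 1065 kept direction and call, 49 gained a call, 51 lost it and 16 changed sign. TPM fixes the sum of each library, depth is unknown, and Stat4 was not tested at the filter of 5 TPM.

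Median-ratio scaling gave 7 members higher and 0 lower with LPS, 1 lower with IFNb, and 8 higher and 0 lower with LPS+IFNb against saline. It gave 2 higher and 0 lower in LPS+IFNb against LPS and 6 higher in LPS+IFNb against IFNb. Upper-quartile scaling gave 0 lower with LPS against saline, 2 higher and 0 lower in LPS+IFNb against LPS, 5 higher in LPS+IFNb against IFNb and 1 higher (Stat5a) for the LPS contrast. Rescaling over protein-coding genes gave 5 higher in LPS+IFNb against IFNb and 1 higher for the LPS contrast. The stricter adjusted p of 0.01 gave 0 lower with LPS against saline, 0 lower in LPS+IFNb against LPS and 1 lower in LPS against IFNb. With no filter these became 0 lower in LPS+IFNb against LPS and 1 lower in LPS against IFNb. With a pseudocount of 0.1, 1 was lower in LPS+IFNb against LPS. Fitting only the groups compared gave 0 lower with LPS against saline and 2 lower in LPS+IFNb against IFNb. Protein-coding transcripts only, added after the data were seen, gave 1 lower in LPS+IFNb against LPS, 5 higher in LPS+IFNb against IFNb and 4 higher in LPS against IFNb. Leaving out each library gave 0 to 1 lower with LPS against saline, 0 to 2 lower in LPS+IFNb against LPS, 1 to 2 lower in LPS+IFNb against IFNb, 1 to 3 lower in LPS against IFNb and 0 to 1 higher for the LPS contrast. At an unadjusted p under 0.05, limma gave 0 lower under median-ratio scaling with LPS and with LPS+IFNb against saline and in LPS+IFNb against LPS, 0 lower under upper-quartile scaling with LPS against saline, 0 lower in LPS+IFNb against LPS without LPS+IFNb replicate 1, and 1 or 2 lower for the other zero counts of lower calls. The cause was not tested.

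Some signs changed. Under median-ratio scaling the difference from saline was 0.078 for Stat6, 0.032 for Mrc1 and 0.053 for Mcl1 with LPS, 0.017 for Stat4, 0.067 for Stat5b and 0.16 for Il10rb with IFNb, and 0.028 for Pias2 and 0.25 for Pias1 with LPS+IFNb. It also gave 0.12 for Stat5b in LPS+IFNb against LPS, 0.11 for Stat6 in LPS+IFNb against IFNb, and −0.018 for Jak1 in the LPS contrast. Jak1 with IFNb was −0.043 under protein-coding rescaling. With each library left out in turn, Stat4 with LPS ranged from −0.016 to 0.42, Tyk2 with LPS from −0.19 to 0.51, Jak1 with IFNb from −0.090 to 0.12, and Stat5b with LPS+IFNb from −0.17 to 0.44. In LPS+IFNb against LPS the range was −0.026 to 0.41 for Stat4 and −0.43 to 0.18 for Stat5b. For the LPS contrast, Stat5b ranged from −0.13 to 0.48. Of these, Stat6 and the 5 list genes had been called lower as reported: Stat6 by −0.38, Mrc1 by −0.42 and Mcl1 by −0.41 with LPS, Il10rb by −0.24 with IFNb, and Pias2 by −0.65 and Pias1 by −0.44 with LPS+IFNb.

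Over all genes, higher and lower calls for LPS over saline were 1664 and 5368, but 2601 and 2167 under median-ratio scaling, and 3416 lower at 0.01. Treatment with IFNb had 5020 lower calls, which became 1830 under median-ratio scaling, 2970 at 0.01 and 3339 without IFNb replicate 1. With LPS+IFNb 1980 higher and 7042 lower became 3460 and 3234 under median-ratio scaling. In LPS+IFNb against LPS 1400 higher and 3129 lower became 893 and 1435 at 0.01, with 1288 lower under median-ratio scaling, 2076 under upper-quartile scaling and down to 1674 with a library left out. In LPS+IFNb against IFNb 1140 higher and 3967 lower became 716 and 1697 at 0.01, with 1365 lower under median-ratio scaling, 2128 under upper-quartile scaling, and 741 higher and 1750 lower without IFNb replicate 2. In LPS against IFNb 2158 higher and 2871 lower became 1311 and 1833 at 0.01, and 1423 higher without IFNb replicate 2. For the LPS contrast 457 higher and 579 lower became 95 and 306 at 0.01, with 222 higher under median-ratio scaling, 294 with no filter, and down to 129 higher and 340 lower without IFNb replicate 1.

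Correlations of replicate differences between groups were −0.156 to 0.141, so same-numbered libraries did not deviate together in all pairs and the numbers were not taken as pairs. With the replicate block, members called higher and lower against saline numbered 5 and 1 for LPS+IFNb, 4 and 1 for LPS, and 4 and 2 for IFNb. The block gave 1 higher and 2 lower in LPS+IFNb against LPS, 4 higher and 1 lower in LPS+IFNb against IFNb, and 3 higher and 3 lower in LPS against IFNb. For the LPS contrast it left 2 members lower, with 263 higher calls over all genes. With the block's numbers crossed in LPS and saline, chosen after the data were seen, 5 of the 6 correlations were above 0.1 and 1 member was lower in LPS+IFNb against LPS, where the call of Stat5a was lost.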
